A study of Mus musculus with 2 samples.

Results

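The genes described here encode the ligands, receptors, Smad transducers, Id proteins and secreted antagonists of the BMP and TGF-beta pathways. They were chosen by gene symbol, through the RefSeq accession of each probe, with earlier results of these data known. Every gene probe of the Bmp, numbered Gdf, Tgfb, Acvr, Bmpr, Tgfbr, Smad, Smurf and Id families was taken. Those of the follistatin (Fst), noggin (Nog), gremlin (Grem) and chordin (Chrd) families were taken too, and Gdf3 and Tgfbrap1 were left out. This gave 46 genes, each with 1 probe, of 10149 genes that could be named on the arrays. By role these were 18 ligands, 8 receptors, 7 Smads, 3 Id genes, 9 secreted antagonists and binding proteins, and the protease gene Bmp1. For another 19 symbols of these families, among them Bmp4, Bmpr1a, Tgfbr1, Id1 and Smad7, no probe was named here.

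The samples were 2 RNA preparations from the mouse embryonic stem (ES) cell line EB5, grown on gelatin with no feeder cells and transfected with Klf4 siRNA together with the plasmid pCAGEGFP-IP (siKlf4 ES cells, n = 2). Cells were kept for 24 h after transfection and selected in puromycin for another 24 h. Each was labelled with Cy3 and hybridised against 1 Cy5-labelled reference, a pool in equal parts of RNA from 11 mouse cell lines (embryo, embryo fibroblast, kidney, liver, lung macrophage, B and T lymphocyte, mammary gland, myoblast, skin and testis). No ES cells without Klf4 siRNA were analysed here, so every ratio below sets siKlf4 ES cells against other cell types and none measures what the siRNA did. The labels do not say whether the preparations were separate cultures, so p-values measure only the spread between these arrays, which may be technical. No dyes were swapped, so a dye effect would stay in each ratio.

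TGF-beta family ligands are secreted dimers that bring together type I and type II serine/threonine kinase receptors on the cell surface. The type I receptor then phosphorylates Smad proteins, Smad2 and Smad3 for TGF-beta, activin and Nodal, and Smad1, Smad5 and Smad9 for BMPs, which enter the nucleus with the common partner Smad4. In mouse ES cells, BMP signalling through Smads induces Id genes, whose products block basic helix-loop-helix (bHLH) factors and help LIF to hold back neural differentiation.

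The promoters of the Id genes and of the TGF-beta pair Tgfb2 and Tgfbr2 are shown because Id2 and Id3, and Tgfb2 and Tgfbr2, were lower together in the siKlf4 ES cells while Id4 was not. Each line holds the 250 bases upstream of the annotated start, 5′ to 3′ on the gene's strand, from RefSeq on build GRCm38.p6. Capitals mark GGCGCC, the palindrome of BMP-responsive GC-rich elements, CAGAC, the core of Smad3- and Smad4-binding CAGA boxes, and CACCC, the core of Krüppel-like factor sites, each on either strand (GTCTG and GGGTG on the other), with no overlap between them. The sequences are from chr12:25096093-25096342 (minus strand) for Id2, chr4:136143572-136143821 (plus) for Id3, chr13:48260866-48261115 (plus) for Id4, chr1:186705990-186706239 (minus) for Tgfb2 and chr9:116175364-116175613 (minus) for Tgfbr2.
Id2: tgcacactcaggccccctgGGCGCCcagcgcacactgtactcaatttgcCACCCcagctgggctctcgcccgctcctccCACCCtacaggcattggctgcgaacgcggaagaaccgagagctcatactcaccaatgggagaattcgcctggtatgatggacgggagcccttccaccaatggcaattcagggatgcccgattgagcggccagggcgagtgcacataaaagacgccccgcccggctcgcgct
Id3: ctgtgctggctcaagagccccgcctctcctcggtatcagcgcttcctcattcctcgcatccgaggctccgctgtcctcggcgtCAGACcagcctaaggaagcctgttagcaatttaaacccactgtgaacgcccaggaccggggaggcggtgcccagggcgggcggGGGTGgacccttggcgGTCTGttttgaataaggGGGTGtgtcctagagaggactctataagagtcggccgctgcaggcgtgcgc
Id4: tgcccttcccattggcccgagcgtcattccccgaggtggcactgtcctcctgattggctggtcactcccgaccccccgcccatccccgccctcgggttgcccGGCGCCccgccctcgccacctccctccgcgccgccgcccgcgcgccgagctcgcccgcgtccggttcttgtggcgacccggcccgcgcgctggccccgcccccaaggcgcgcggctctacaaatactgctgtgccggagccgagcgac
Tgfb2: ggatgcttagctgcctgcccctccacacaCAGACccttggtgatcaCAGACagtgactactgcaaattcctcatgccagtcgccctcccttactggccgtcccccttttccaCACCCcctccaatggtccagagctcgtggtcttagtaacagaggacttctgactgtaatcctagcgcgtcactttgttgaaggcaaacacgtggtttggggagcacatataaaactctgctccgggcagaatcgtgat
Tgfbr2: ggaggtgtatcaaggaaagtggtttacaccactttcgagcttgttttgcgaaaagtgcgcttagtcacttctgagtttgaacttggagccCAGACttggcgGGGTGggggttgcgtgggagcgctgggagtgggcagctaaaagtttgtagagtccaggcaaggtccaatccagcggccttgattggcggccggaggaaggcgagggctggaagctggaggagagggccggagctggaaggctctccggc
GGCGCC stood 1 time each in the Id2 and Id4 windows and in none of the other 3. CACCC was found 2 times each before Id2 and Id3, 1 time each before Tgfb2 and Tgfbr2, and not before Id4. CAGAC was found 2 times each before Id3 and Tgfb2 and 1 time before Tgfbr2. Such matches are common: of 32851 promoters in the table, 9.59% held GGCGCC, 42.2% CAGAC and 52.0% CACCC in the same window. The table held 37 promoters for 31 of the 46 genes, of which 21.6%, 45.9% and 64.9% held these letters.

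The arrays themselves were checked first. Signals are given in arbitrary units above local background, before normexp and loess. Spots of the arrays' negative control type had median signals of 129 and 138 units in the ES channel, against 28.5 and 32.3 units in the reference channel. A probe was taken as measured in a channel where it passed the 95th percentile of these spots, at 155 and 178 units in the ES channel and 40.9 and 58.4 units in the reference. Since the ES channel read higher at these spots, the corrected log2 ratio of a dim gene can run against its signals, and only the ratio was tested. Klf4, the siRNA target, gave 1826 and 2542 units in siKlf4 ES cells, against 1518 and 1603 units in the reference pool, a log2 ratio of 0.51 ± 0.11 (SD, n = 2), which does not test the siRNA because no untreated cells are present. Of 12 tested pluripotency markers, 10 were at least 2-fold higher in the siKlf4 ES cells, among them Pou5f1 (2.86) and Sox2 (5.69). Fgf4 stood at 0.00 and Esrrb was above the limit in neither channel. Log2 ratios on both arrays correlated at r = 0.987 over 21028 probes, a description of arrays that share their reference.

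Across the 46 genes the siKlf4 ES cells were more often lower than the reference pool. At an adjusted p under 0.05 with a log2 ratio of at least 1 in size and the same sign on both arrays (limma, Benjamini-Hochberg over all probes), 7 genes were lower and 0 higher. Over all 21028 probes the same rule called 5.19% lower and 5.08% higher, and over the 10137 named genes 7.5% lower and 6.73% higher, so the 15.2% of pathway genes called lower lay above both shares. The 7 genes were Id2, Id3, Fstl1, Tgfbr2, Bmper, Tgfb2 and Smad3. Gdf3, left out of the 46 genes, was called higher by the same rule, at a log2 ratio of 2.30. The count of 0 higher thus depends on leaving it out. The median log2 ratio of the 46 genes was -0.14, against -0.01 over all probes, and it was the same with genes that have only a bound set at that bound. These are counts of chosen genes, not a test of the pathway.

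Smaller ratios need caution. At the adjusted p alone, 25 of the 46 genes were lower and 6 higher, where that rule called 31.4% of all probes lower and 31.6% higher, and 34.2% of named genes lower and 34.8% higher, but 115 of the 162 negative control spots passed it too. The median log2 ratio at such spots was 0.16, shifted to the ES side. The largest absolute log2 ratio at such a spot was 0.52, and 33 of the 46 genes lay within it in size. Here the range or span of these spots means 0.52 on either side of 0, although their reach below 0 was not taken separately. Beyond that limit with the same p, 11 genes were lower (among them Bmp7, whose bound lies inside it) and 2 higher, against 10.8% and 12.1% of all probes. The 2 higher genes were Acvr2b and Smad4.

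**Figure D1:**
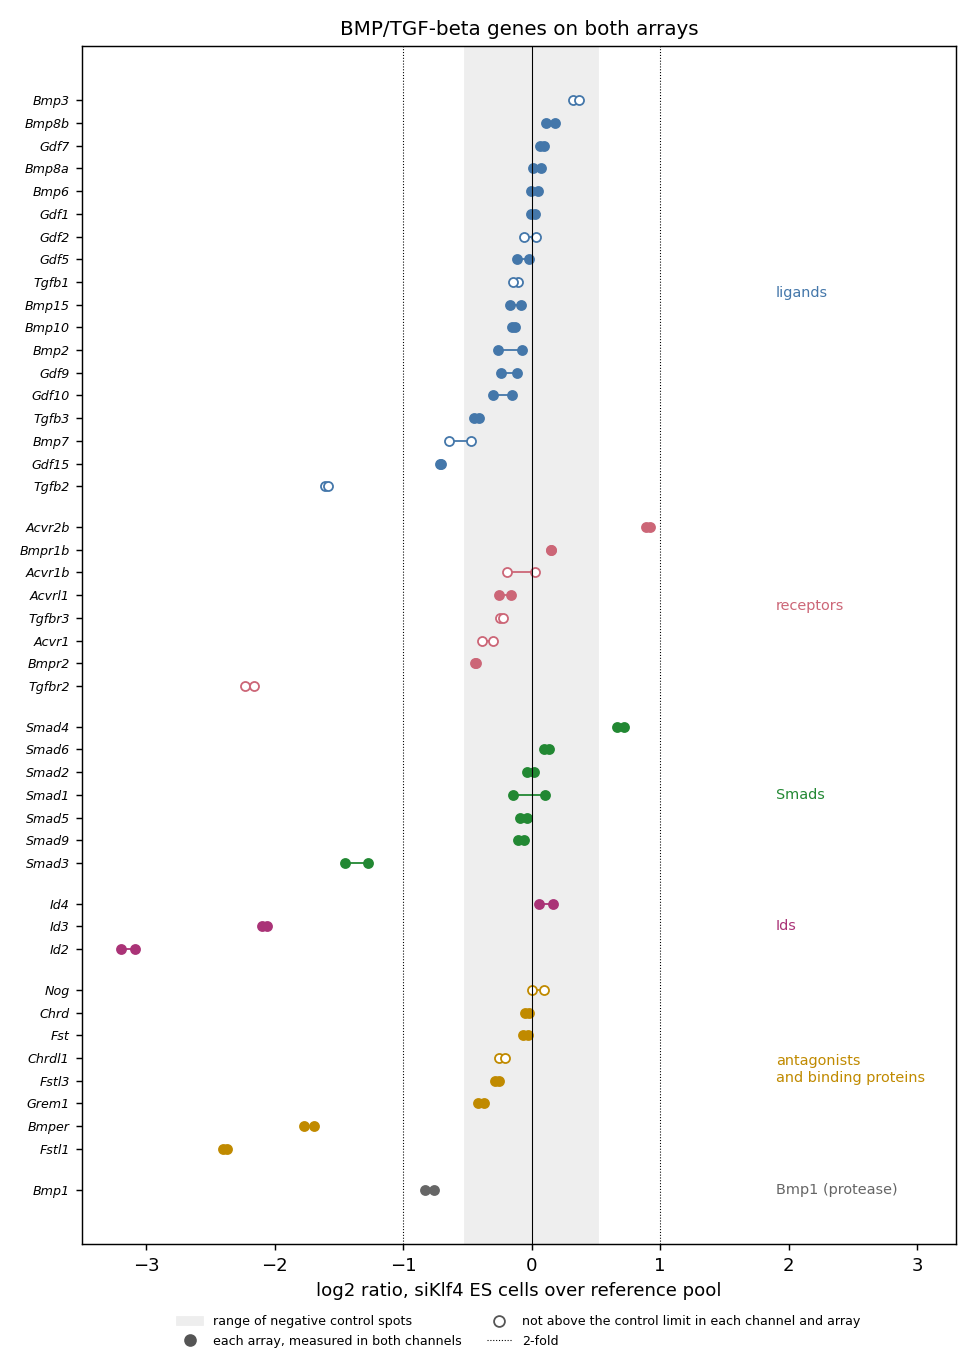
Log2 ratio of siKlf4 ES cells over the reference pool (x axis) for 45 of the 46 genes (rows, grouped by role), with 1 point per array joined by a line, open where the probe did not pass the negative control limit in each channel on each array. Grey marks how far negative control spots reached (0.52), inside which 33 genes lie, and 7 genes lie beyond the dotted 2-fold line on the low side.

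Id genes carried the largest difference. Id2, which encodes a dominant-negative partner of bHLH factors, gave 432 and 530 units in siKlf4 ES cells, against 4237 and 4167 units in the reference pool. Both ES signals lay far below both reference signals, and the log2 ratios were -3.20 and -3.09, with a mean of -3.14 ± 0.079 (SD, n = 2), or 8.82-fold lower (adjusted p = 6.96e-07). Id3, a close relative with the same action, gave 1452 and 1762 units in siKlf4 ES cells, against 6791 and 6717 units in the reference pool. Its channels did not overlap either, and it was 4.23-fold lower, at -2.08 ± 0.030 (adjusted p = 1.27e-06). Neither gene was near absence in the ES cells, since both passed the negative control limit of that channel on both arrays. Id4, the relative best known from neural precursors, gave 359 and 431 units in siKlf4 ES cells, against 288 and 295 units in the reference pool, with log2 ratios of 0.05 and 0.16 that did not pass the test (adjusted p = 0.0771). The promoters of Id2 and Id4, printed above, both hold GGCGCC. Whether this motif bears on the ratio of either gene was not tested.

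Among the Smads, only Smad3 was called. Smad3, a receptor-activated Smad of the TGF-beta and activin branch, gave 677 and 960 units in siKlf4 ES cells, against 2032 and 2208 units in the reference pool. The log2 ratios were -1.45 and -1.27, a mean of -1.36 ± 0.13 (SD, n = 2), or 2.57-fold lower (adjusted p = 1.23e-05), and without background correction it stood at -0.99, just under 2-fold. Smad2, which is activated by the same receptors, gave 1453 and 2108 units in siKlf4 ES cells, against 1606 and 2051 units in the reference pool. Its log2 ratios of 0.02 and -0.04 took both signs and did not pass (adjusted p = 0.857), so the 2 Smads of this branch stood apart on both arrays, a difference between genes that was not itself tested.

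The BMP-activated Smads lay close to the reference. Smad1 gave 439 and 404 units in siKlf4 ES cells, against 369 and 348 units in the reference pool, and its log2 ratios of 0.10 and -0.15 had opposite signs (adjusted p = 0.79). With a gap of -0.25 between array 2 and array 1, it was the least repeatable of the 46 genes. Smad5 had 278 and 305 units in siKlf4 ES cells, against 208 and 219 units in the reference pool, with log2 ratios of -0.04 and -0.09 (adjusted p = 0.188). Smad9 had 359 and 498 units in siKlf4 ES cells, against 330 and 430 units in the reference pool, with log2 ratios of -0.10 and -0.06 (adjusted p = 0.113). None of the 3 passed the test, and all 3 lay inside the range of the negative control spots.

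Smad4, the partner shared by both branches, was the Smad that stood highest. It gave 532 and 564 units in siKlf4 ES cells, against 290 and 281 units in the reference pool. The log2 ratios of 0.72 and 0.67, a mean of 0.69 ± 0.035 (SD, n = 2), equal 1.62-fold (adjusted p = 4.15e-05), under the 2-fold limit but beyond every negative control spot, and the mean was 0.36 without background correction. Smad6, an inhibitory Smad that BMP signalling itself induces, had 289 and 343 units in siKlf4 ES cells, against 190 and 223 units in the reference pool. Its log2 ratios of 0.13 and 0.10 passed at the adjusted p alone (0.0417) and lay well inside the negative control range.

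**Figure D2:**
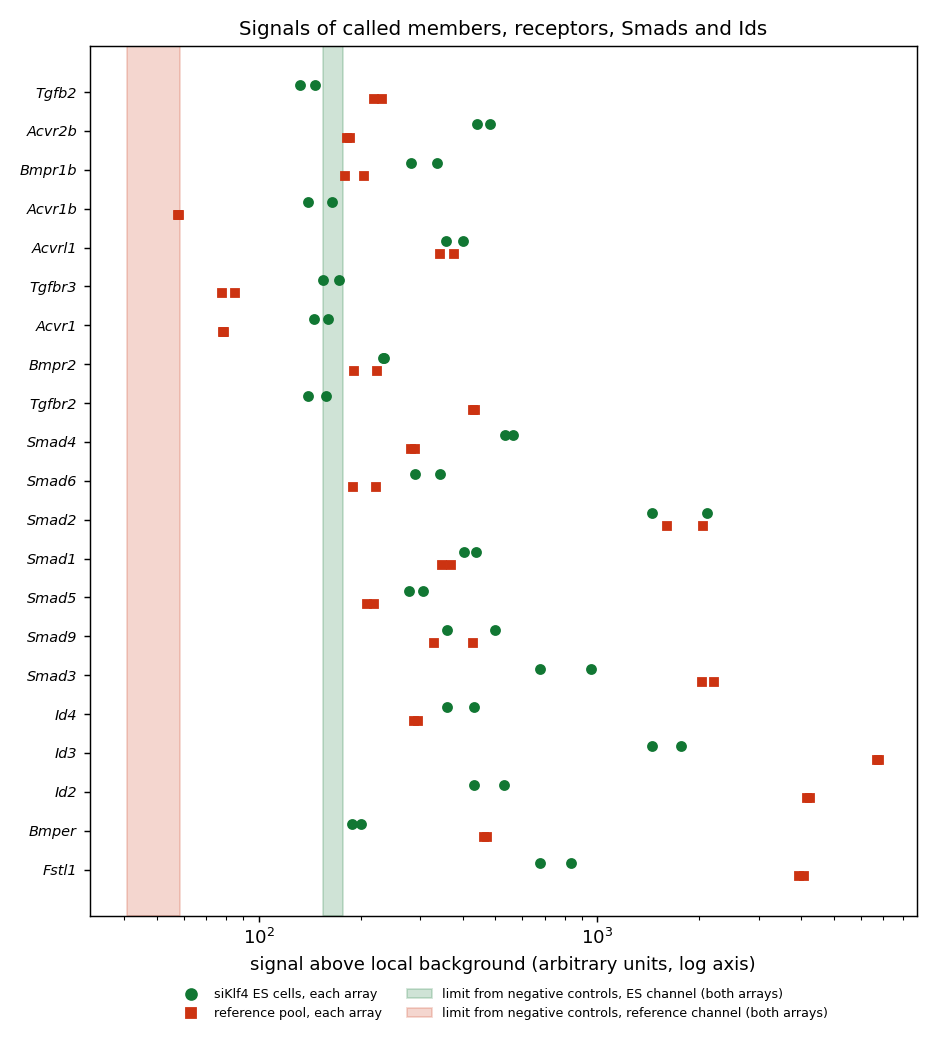
Signal above local background (x axis, arbitrary units, log scale) in siKlf4 ES cells (green circles) and in the reference pool (red squares) on each array. Rows are the genes called at 2-fold and all receptors, Smads and Ids with a probe. Shaded bands span the negative control limits of both arrays in each channel. Tgfb2, Tgfbr2, Acvr1 and Acvr1b do not pass the ES limit on either array (155 and 178 units), and Tgfbr3 passes on 1 only.

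Receptor genes went both ways. Tgfbr2, the type II receptor that binds TGF-beta, gave 140 and 158 units in siKlf4 ES cells, against 430 and 434 units in the reference pool. The ES signal was not above the negative control limit on either array, so with this background correction the gene was at least 3.96-fold lower in the ES cells, the ES channel being set at its limit (measured log2 ratio -2.20 ± 0.049, SD, n = 2, adjusted p = 1.25e-06). Its log2 ratio was -0.80 when no background was subtracted. Tgfbr3, betaglycan, a co-receptor that presents TGF-beta to that receptor, had 155 and 172 units in siKlf4 ES cells, against 78.0 and 85.1 units in the reference pool. It passed the ES limit on 1 array only, and its log2 ratios of -0.24 and -0.22 are uncertain.

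Acvr2b, a type II receptor for activin and Nodal, was the receptor that stood highest. It gave 441 and 483 units in siKlf4 ES cells, against 182 and 186 units in the reference pool. The log2 ratios of 0.92 and 0.89, a mean of 0.91 ± 0.024 (SD, n = 2), equal 1.88-fold (adjusted p = 1.41e-05). With a smaller offset of 16 in the background correction it passed 2-fold at 1.02, and with none it stood at 0.40. Acvr1b, a type I receptor for the same ligands, had 140 and 164 units in siKlf4 ES cells, against 57.8 and 58.2 units in the reference pool, and was not above the limit on either array in the ES channel and on 1 array only in the reference, with log2 ratios of -0.20 and 0.03. The type II and type I arms of this receptor were thus measured with unequal certainty.

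The remaining receptors lay within the negative control range. Bmpr2, the BMP type II receptor, had 234 and 233 units in siKlf4 ES cells, against 223 and 191 units in the reference pool, with log2 ratios of -0.44 and -0.43 (adjusted p = 0.000223). Bmpr1b, a BMP type I receptor, had 282 and 335 units in siKlf4 ES cells, against 180 and 205 units in the reference pool, and its log2 ratio was 0.15 on both arrays (adjusted p = 0.016). Acvrl1, a type I receptor best known from endothelium, had 357 and 401 units in siKlf4 ES cells, against 343 and 376 units in the reference pool, at -0.16 and -0.26. Acvr1, a type I receptor for BMPs, had 145 and 160 units in siKlf4 ES cells, against 78.5 and 78.8 units in the reference pool, and did not pass the ES limit. Its measured log2 ratio of -0.34 was -0.13 with median centring and -0.07 without background correction, so no minimum fold is given. Their ratios passed the p threshold but are no larger in absolute size than the largest seen at a negative control spot.

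Of the 18 ligands, Tgfb2 was the one called at 2-fold. It gave 132 and 146 units in siKlf4 ES cells, against 219 and 231 units in the reference pool. The ES signal did not pass the negative control limit on either array, and with this background correction the gene was at least 2.39-fold lower in the ES cells (measured log2 ratios -1.61 and -1.59, adjusted p = 2.25e-06), or -0.47 on the log2 scale without background correction. Both a TGF-beta ligand and its type II receptor were therefore at the detection limit in the ES channel and measured in the pool. Of the other TGF-beta ligands, Tgfb3 passed the limit in both channels. It had 283 and 289 units in siKlf4 ES cells, against 299 and 276 units in the reference pool, at a mean of -0.43. Tgfb1 gave 130 and 141 units in siKlf4 ES cells, against 43.4 and 50.7 units in the reference pool, with no array above the ES limit and 1 above the reference limit, so that its log2 ratio of -0.13 has little meaning, and it turned to 0.09 with median centring.

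At the adjusted p alone, 10 of the 18 ligands were lower, 2 higher and 6 not passed, where 31.4% of all probes were lower and 31.6% higher. Of the 15 Bmp and Gdf ligands among them 7 were lower, 2 higher and 6 not passed, with a median log2 ratio of -0.07 and 0 past 2-fold. The 3 examples that the naming rule took for their ES signal were Bmp10, Gdf1 and Bmp6. Bmp10, known from the heart, had 543 and 568 units in siKlf4 ES cells, against 593 and 549 units in the reference pool, at log2 ratios of -0.13 and -0.16. Gdf1, a partner of Nodal, had 537 and 600 units in siKlf4 ES cells, against 515 and 523 units in the reference pool, at a mean of 0.01. Bmp6 had 398 and 524 units in siKlf4 ES cells, against 353 and 421 units in the reference pool, at -0.01 and 0.05. All 3 ratios lay within the span of the negative control spots.

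Among the other ligands, Gdf15 and Bmp7 were singled out after their values were seen. Gdf15, a stress-induced ligand, had 261 and 317 units in siKlf4 ES cells, against 342 and 390 units in the reference pool. Its log2 ratio was -0.71 ± 0.0093 (SD, n = 2), or 1.64-fold lower (adjusted p = 3.23e-05), and -0.31 without background correction. Bmp7 had 150 and 169 units in siKlf4 ES cells, against 111 and 107 units in the reference pool, and did not pass the ES limit on either array. Its measured log2 ratio of -0.56 becomes -0.48 with the ES channel at that limit, inside the span of the negative control spots, and was -0.38 with median centring and -0.16 without background correction. Bmp2, which induces Id genes in ES cell cultures when added with LIF, stood at -0.08 and -0.27 on the 2 arrays. The log2 ratios of Bmp8a, Bmp8b, Bmp15, Gdf5, Gdf7, Gdf9 and Gdf10 ran from -0.22 to 0.14. Gdf2 (-0.01) was not above the ES limit and Bmp3 (0.34) passed in neither channel.

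Secreted antagonists and binding proteins were lower or close to the reference. At the adjusted p alone 6 of 9 were lower, 0 higher and 3 not passed, where 31.4% of all probes were lower and 31.6% higher. At 2-fold 2 were lower, where that rule called 5.19% of all probes and 7.5% of named genes lower. Fstl1, a follistatin-like glycoprotein made by mesenchymal cells, gave 678 and 839 units in siKlf4 ES cells, against 3943 and 4086 units in the reference pool. The channels were far apart, at -2.40 and -2.37, a mean of -2.39 ± 0.021 (SD, n = 2) or 5.24-fold lower (adjusted p = 8.92e-07). Bmper, a secreted BMP-binding protein related to crossveinless-2 of Drosophila, gave 189 and 201 units in siKlf4 ES cells, against 463 and 471 units in the reference pool. It was 3.33-fold lower, at -1.74 ± 0.056 (adjusted p = 2.35e-06), and without background correction it stood at -0.71.

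Smaller ratios followed. Grem1, gremlin, which binds and blocks BMPs, had 516 and 719 units in siKlf4 ES cells, against 692 and 860 units in the reference pool, at -0.42 and -0.37. The classic organizer antagonists did not differ beyond the arrays' spread. Chrd, chordin, had 536 and 607 units in siKlf4 ES cells, against 535 and 551 units in the reference pool (log2 ratio -0.04, adjusted p = 0.39), and Fst, the activin antagonist follistatin, had 454 and 588 units in siKlf4 ES cells, against 446 and 520 units in the reference pool (-0.05, adjusted p = 0.288). Nog, noggin, was above the limit in neither channel, Fstl3 stood at -0.27, and Chrdl1 (-0.23) was not above the ES limit. Bmp1, despite its name, encodes a procollagen protease that also cleaves chordin. It had 175 and 188 units in siKlf4 ES cells, against 176 and 186 units in the reference pool. Its normalised log2 ratio was -0.80 ± 0.048, or 1.74-fold lower (adjusted p = 2.78e-05), and -0.26 without background correction.

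Repeatability of the ratios was read from the difference between the arrays. A shift that both arrays share, such as a dye or background effect, would not show in it. The median absolute difference was 0.05 on the log2 scale over the 46 genes, against 0.06 over all probes, and 39 genes had the same sign on both arrays. Besides Smad1, the receptor Acvr1b (0.22) had the widest gap, close to the 95th percentile of all probes, 0.22. All 7 genes called at 2-fold had single-array log2 ratios of at least 1 in size on each array, so neither array alone set the calls.

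**Figure D3:**
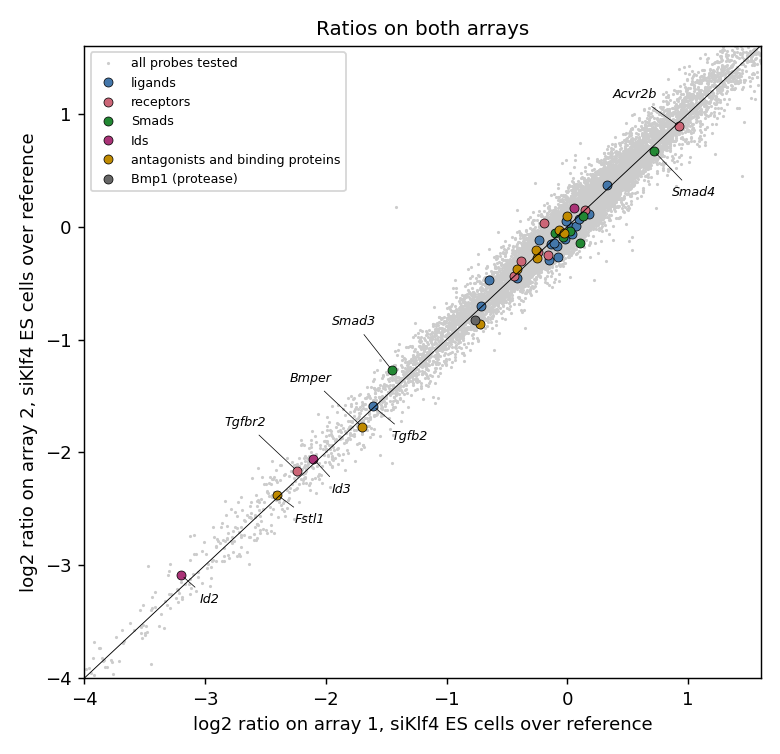
Log2 ratio on array 1 (x axis) against array 2 (y axis), siKlf4 ES cells over the reference pool, with all probes tested in grey and the 46 genes coloured by role, shown from -4 to 1.6 so that larger ratios of other probes fall outside. The genes lie along the line of equality, from Id2 at -3.20 and -3.09 to Acvr2b at 0.92 and 0.89.

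Other genes of the pathway, taken from lists that do not use the rule, were counted at the same 2-fold rule. Every tested gene was counted, whether or not it passed the negative control limit. That 2-fold rule called 6.73% of named genes higher and 7.5% lower. Among 9 other ligands and co-factors of the family tested, of 11 listed, 4 were higher and 1 lower. Higher were the Nodal co-receptor gene Tdgf1 (by the brighter of its probes), the Nodal antagonist gene Lefty1 and Gdf3, as well as Amhr2, the type II receptor for anti-Müllerian hormone (named after its values were seen), which gave 612 and 777 units in siKlf4 ES cells, against 167 and 227 units in the reference pool and was 2.84-fold higher. Inhba, the activin A subunit gene, was 7.48-fold lower. Of 16 tested Smad partners and nuclear regulators, of 24 listed, 3 were higher and 1 lower. Tgif2, a homeodomain repressor that binds Smads, gave 2750 and 3564 units in siKlf4 ES cells, against 1061 and 1250 units in the reference pool, and was 2.79-fold higher (1.48 ± 0.072, adjusted p = 4.46e-06). Its relative Tgif1 stood at 1.03 and the Smad-binding zinc finger gene Zfp423 at 1.19, while Zeb2, which encodes another Smad-interacting repressor, stood at -1.05.

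Genes acting on ligands outside the cell and textbook TGF-beta targets were mostly lower. Of 16 tested extracellular regulators, of 30 listed, 13 passed the negative control limit in both channels. Of the 16, 8 were lower and 0 higher, with a median of -0.91. They were led by the proteoglycans Bgn (-4.78) and Dcn (-4.64), both of which bind TGF-beta, and by the latent TGF-beta binding proteins Ltbp2 (-2.65) and Ltbp3 (-2.04). Ltbp4, of the same family and chosen after its value was seen, stood at 0.50. Of 17 tested TGF-beta targets, of 20 listed, 10 were lower and 0 higher, with a median of -1.47. Cdkn2b, counted among the 10, was not above the ES limit, and its bound of -0.78 falls short of 2-fold. Of the 7 not called, Klf10 (0.35) and Skil (0.25) were higher at the adjusted p alone. Junb, Snai1 and Timp3 were lower at that p, while Tgfbi (0.07) and Pmepa1 (-0.04) did not pass. The matricellular gene Ccn1 gave 370 and 408 units in siKlf4 ES cells, against 3681 and 3638 units in the reference pool, and was 9.62-fold lower. The collagen genes Col1a1 (-2.91) and Col1a2 (-2.70) followed, with Ltbp2, which is on both lists.

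Of 13 tested textbook BMP targets, of 18 listed, 9 passed the negative control limit in both channels. Of the 13, 1 was higher and 2 lower, with a median of -0.11. At the adjusted p alone 2 were higher and 6 lower, where 34.8% of named genes were higher and 34.2% lower. The difference from the TGF-beta targets was not tested. Alpl, tissue-nonspecific alkaline phosphatase and a marker of ES cells as well as a BMP target in bone, gave 1782 and 2331 units in siKlf4 ES cells, against 287 and 316 units in the reference pool, and was 6.45-fold higher. Gata3 was 2.58-fold lower, and Gata2 was not above the ES limit, with a bound of -0.57 on the log2 scale. In a list of 19 tested bHLH and Ets genes, 2 were higher and 3 lower. Several of their products bind Id proteins or the E proteins that Ids block. Tal1, counted among the 3 lower, was not above the ES limit, and its bound of -0.79 falls short of 2-fold. Tcf15, a mesodermal bHLH factor also found in ES cells, stood at 3.87 and Tcfl5, of testis, at 2.15. The E protein gene Tcf4 (-1.90) and Twist1 (-1.40) were lower, so Id2, Id3 and this E protein gene stood on the same side of the pool.

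**Figure D4:**
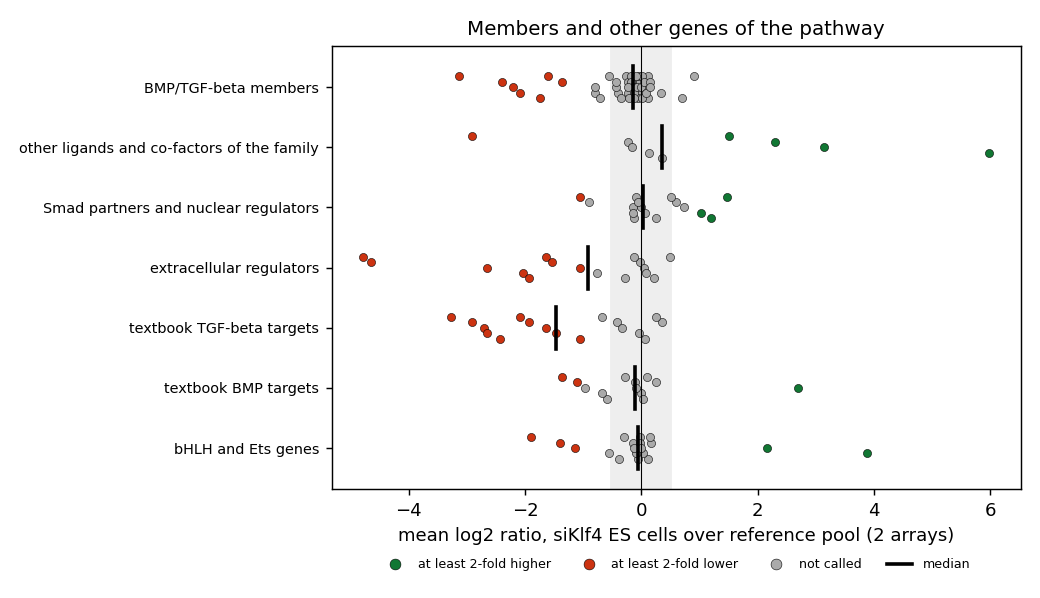
Mean log2 ratio of siKlf4 ES cells over the reference pool (x axis, 2 arrays) for the 46 genes and for 6 lists of other pathway genes (rows), 1 point per gene, coloured by the 2-fold call, with the median as a black bar and the negative control range in grey. Extracellular regulators (median -0.91) and TGF-beta targets (-1.47) lie low, while the 46 genes (-0.14) and BMP targets (-0.11) centre near 0.

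Markers of fibroblasts and macrophages, which the pool's labels name, and of early embryonic lineages, which they do not, were counted too. Of 6 tested fibroblast markers, of 7 listed, 5 were at least 2-fold lower. The summed signal of the 6 was 1800 and 2106 units in siKlf4 ES cells, against 15679 and 15256 units in the reference pool. Postn was not above the ES limit. Of these markers 3 (Col1a1, Col1a2 and Dcn) are also on the pathway lists above, so the lists are not independent. All 4 tested macrophage markers, of 5 listed, were at least 2-fold lower. Their sums were 934 and 943 units in siKlf4 ES cells, against 6040 and 5908 units in the reference pool. Lyz2 and Ctss were not above the ES limit. Of 6 tested trophectoderm markers, of 8 listed, 3 were lower and 1 higher, Tfap2c (3.26). Their sums were 3342 and 3682 units in siKlf4 ES cells, against 21743 and 21720 units in the reference pool. Krt18 (-4.09) gave most of the pool's sum. Of 5 tested primitive endoderm markers, of 7 listed, 1 was lower, Afp, which did not pass the ES limit. Mesoderm and neuroectoderm markers, 6 tested for each list, had 0 genes past 2-fold in either direction. What part these cell types have in the ratios of the pathway genes was not tested, and in a pool fewer cells of a type and less RNA per cell cannot be told apart.

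The size of the ratios depended on background more than on scaling. For Id2 the mean log2 ratio ran from -3.36 to -2.32 over all settings tried, for Id3 from -2.22 to -1.79 and for Fstl1 from -2.60 to -1.86, so these 3 genes stayed beyond 2-fold in each. Smad3, Bmper, Tgfbr2 and Tgfb2 stayed on the low side in each setting but came within 2-fold without background correction.

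**Figure D5:**
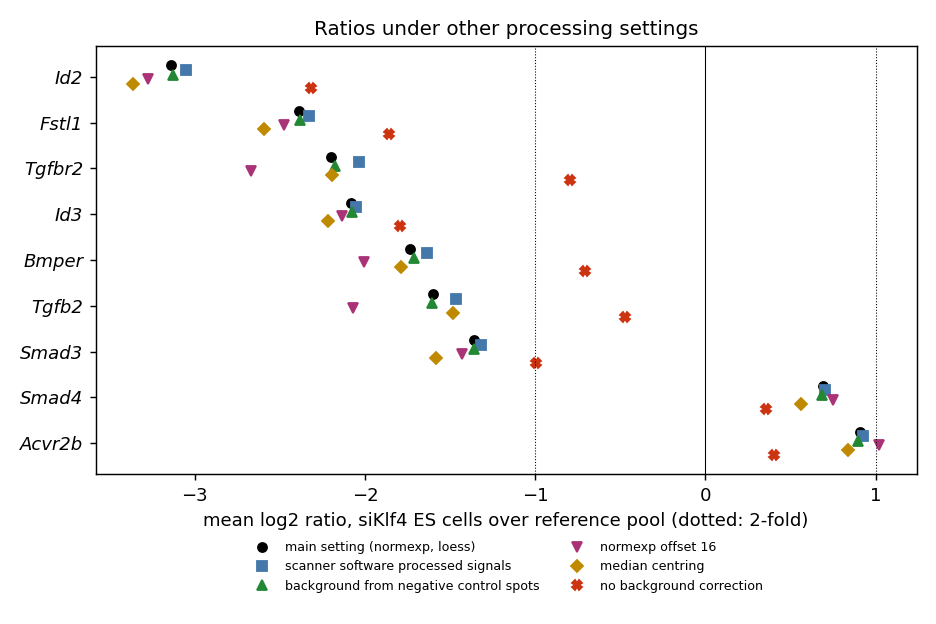
Mean log2 ratio of siKlf4 ES cells over the reference pool (x axis, dotted lines at 2-fold) for the 7 called genes, Smad4 and Acvr2b (rows) under the main setting and 5 others (symbols). Without background correction (red crosses) each ratio is nearer to 0, with Id2 at -2.32, Id3 at -1.79 and Fstl1 at -1.86 still beyond 2-fold.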

How the data were processed

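RNA of 2 siKlf4 ES cell samples (Cy3) and a common reference (Cy5) was measured on 2 two-colour arrays with 21052 gene probes each. Scanner intensity values were extracted by the authors with Agilent Feature Extraction A.7.5.1, per the file headers, as mean signals, local background and processed signals (background-subtracted, LOWESS dye-normalised). The deposited log10 ratio is red over green. The deposited series table holds log10 values of unstated making, with medians of 2.918 and 2.921. From the values, each is the mean log10 red processed signal minus that array's log10 ratio (within 2e-04 for 99.6% of probes), so scale and direction are known and it is not centred.

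Here, mean signals were corrected by normexp (offset 50) on the local background median and normalised by loess within each array, control spots at weight 0 (limma 3.58.1, R 4.3.3), and ratios turned to ES cells over reference. Leaving out 24 outlier-flagged probes kept 21028. The software's well-above-background flag was set for 100% of gene probes in the ES channel, so the 95th percentile of 162 negative control spots served as the limit. A bound sets the dim channel at that limit before correction and keeps the probe's loess shift. Ratios were tested against 0 with lmFit and eBayes (1 residual and 4.24 prior degrees of freedom), Benjamini-Hochberg adjusted over all probes. The fit was run on simulated ratios with variances drawn from its own prior and no shift shared by the arrays. This checks the code and cannot show the effect of a dye or background shift. The small number of arrays limits precision.

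RefSeq tables named 10422 probes with 1 symbol and left 10630 unnamed. All 46 genes were kept in the counts, 1 of them is not reported here by name or value, and 0 were saturated or flagged. Values on both arrays are given for genes called at 2-fold and for all receptors, Smads and Ids. Of each other role up to 3 genes with the highest ES signal are examples. Of other lists up to 4 called genes are named, besides those whose bound falls short of 2-fold, each by its brightest probe. The genes and lists were chosen with earlier results of these data known. Other settings tried were no background correction, the software's processed signals, background from negative controls, an offset of 16, median centring, the mean of a gene's probes, a filter on dim probes, flagged spots kept, the series table and each array alone.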

Additional observations from a re-analysis of the deposited data

How the results depend on the processing

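Under the other settings the count of pathway genes at least 2-fold lower was 7 or 8 in all but 1 case: without background correction it was 3 (Id2, Id3 and Fstl1), as all probes then gave 510 higher and 467 lower in place of 1068 and 1092. The count at least 2-fold higher was 0 except with an offset of 16, where it was 1 (Acvr2b, 1.02). With median centring the count lower was 8. With genes that have only a bound set at that bound, an alternative chosen after seeing the data, the count lower remained 7. Only genes that passed the adjusted p, and all receptors, Smads and Ids, were followed through the settings. Ligands and antagonists that did not pass were not followed, and of these Gdf1, Gdf2, Bmp6 and Nog had opposite signs on the arrays. Of the 37 genes followed, 4 took the other sign in some setting. Tgfb1 stood at 0.0863 with median centring (adjusted p = 0.168), and the other 3 had not passed the test: Acvr1b stood at 0.14 with median centring and 0.03 on array 2 alone, Smad1 at 0.10 on array 1 alone, and Smad2 at 0.03 without background correction, 0.02 with processed signals or the series table and 0.02 on array 1 alone. Each array alone, judged by size with no test, gave 7 lower and 0 higher in both cases, and 1041 to 1117 higher and 1079 to 1121 lower probes overall. Counts at the adjusted p alone cannot be formed from 1 array. Each of the 46 genes has 1 probe, so averaging probes changed nothing. No paired analysis was possible because the series holds 1 group. Signal over background limits what can be read: in siKlf4 ES cells 10 of the 46 genes did not pass the limit on any array, and 2 of these did not pass it in the reference pool either.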
